A study of Mus musculus with 8 samples.

Results

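Calcium-binding marker proteins are small, mostly cytosolic proteins, and antibodies to several of them are used to tell neuron classes apart. Here 10 genes of this group were followed in dorsal root ganglia (DRG): Calb1, Calb2, Pvalb, Necab1, Necab2, Necab3, Ncald, Vsnl1, Hpca and Caln1. They were chosen by name from the 55414 genes counted in each library. Each matched a single Ensembl gene ID, and all 10 passed the filter on low counts that 17721 genes passed. Bulk RNA-seq was performed on DRG of E18.5 mouse embryos, with 4 libraries named AD1 OE and 4 named Control. AD1 OE embryos (AdvillinCre/+;Rosa26Dach1/+) carry Cre in the Advillin locus, a gene of sensory neurons, and a Rosa26 allele from which Dach1, a transcriptional corepressor, and EGFP are made where Cre has excised a stop cassette. Control embryos (Advillin+/+;Rosa26Dach1/+) carry the same Rosa26 allele without Cre, so that both groups share the transgene and only AD1 OE embryos have a modified Advillin allele. The Rosa26Dach1 mice were kept on a mixed C57Bl/6J and CD1 background, and AD1 OE pups die around birth. The study counts 4 embryos per group, while the labels do not tie each library to an embryo.

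Most of these proteins bind calcium through EF-hands, helix-loop-helix units whose short loop holds the ion. Calbindin (Calb1), calretinin (Calb2) and parvalbumin (Pvalb) are buffers that limit the calcium rise after a spike, the NECAB proteins carry an EF-hand region at their N-terminal end, and the neuronal calcium sensors neurocalcin delta (Ncald), visinin-like 1 (Vsnl1) and hippocalcin (Hpca) move to membranes when calcium rises. Calneuron 1 (Caln1) is a calmodulin-like protein of the Golgi membrane. In DRG, parvalbumin marks mainly proprioceptors, calbindin and calretinin label subsets of large neurons, and NECAB proteins are found in several neuron classes.

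The EF-hand loops are shown because they are the calcium-binding part shared by the 10 genes. Loops were located in the coding sequence of the principal transcript of each gene (GENCODE M21, GRCm38) with the PROSITE EF-hand pattern. The pattern found 4 loops in Calb1, 5 in Calb2, 2 in Pvalb, 1 in Necab1, 2 in Necab2, 1 in Necab3, 3 each in Ncald, Vsnl1 and Hpca, and 2 in Caln1. One loop per gene is written below, 36 bases in the coding direction. Capitals mark the codons of loop positions 1, 3, 5 and 12, which are among those that hold calcium.
Calb1, exon 5, chr4:15895644-15895679 (+): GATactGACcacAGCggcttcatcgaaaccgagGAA
Calb2, exon 5, chr8:110149362-110149397 (-): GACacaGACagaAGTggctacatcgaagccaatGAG
Pvalb, exon 3, chr15:78202526-78202561 (-): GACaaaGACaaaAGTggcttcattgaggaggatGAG
Necab1, from exon 3, spliced, chr4:15111277-15140234 (-): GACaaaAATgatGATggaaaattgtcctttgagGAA
Necab2, from exon 2, spliced, chr8:119450097-119452107 (+): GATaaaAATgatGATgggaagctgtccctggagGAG
Necab3, from exon 2, spliced, chr2:154555667-154557066 (-): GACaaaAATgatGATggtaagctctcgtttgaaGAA
Ncald, exon 5, chr15:37397183-37397218 (-): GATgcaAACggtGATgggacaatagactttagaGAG
Vsnl1, exon 3, chr12:11332127-11332162 (-): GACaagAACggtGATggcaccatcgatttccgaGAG
Hpca, exon 2, chr4:129118490-129118525 (-): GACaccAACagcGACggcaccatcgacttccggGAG
Caln1, exon 3, chr5:130617869-130617904 (+): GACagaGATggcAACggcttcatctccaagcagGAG
Coding sequences were aligned over their whole length, and identity was counted over aligned bases only, without gaps. Ncald and Hpca were 80.0% identical, with a longest shared run of 46 bases. Ncald and Vsnl1 were 71.6% identical, and Vsnl1 and Hpca 72.8%. Calb1 and Calb2 were 65.9% identical with no shared run over 12 bases, and the longest run shared among the NECAB genes was 23 bases. The NECAB pairs were 61.7 to 63.9% identical. Pairs from different families reached similar or higher values, such as Pvalb with Necab2 (77.4%) and with Necab3 (76.9%), with gaps left out. These percentages alone therefore do not show kinship.

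Levels are given as CPM, the read count of a gene relative to the library size after TMM scaling, which evens out differences in composition. Library totals were 22339059 to 44025625 counts, so that 1 CPM stood for 22.2 to 44.2 counts, and the lowest count of any of the 10 genes in any library was 92, for Calb2. Dach1, the overexpressed gene, was at 91.5 to 102 CPM in AD1 OE and 30.2 to 33.7 CPM in Control (log2 fold change 1.56 ± 0.05 SE, edgeR adjusted p = 1.77e-08), and Avil, which carries the Cre, was at 449.6 to 478 against 840.4 to 919 CPM (log2 fold change -0.94 ± 0.04, edgeR adjusted p = 1.98e-07). Summed CPM of 8 pan-sensory neuron markers was 6976 to 7548 in AD1 OE and 7307 to 7563 in Control, and that of 8 glial markers 1209 to 1517 and 1213 to 1505, with none of the 16 genes passing the test. One Control library, replicate 1, had the highest summed level of 12 spinal cord markers (51.6 CPM, against 16.9 to 34.2 in the other Control and 19.4 to 26.0 in the AD1 OE libraries) and of 8 sympathetic neuron markers (20.0 CPM, against 3.24 to 6.92 elsewhere). AD1 OE replicate 3 had the highest summed level of 8 skeletal muscle markers (722 CPM, against 129.7 to 440 elsewhere). Xist and Y-linked counts read AD1 OE replicates 1, 2 and 4 and Control replicate 4 as male and the other 4 libraries as female, so that sex is unequal between the groups.

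A gene was called where its Benjamini-Hochberg adjusted p from edgeR's quasi-likelihood test over all 17721 genes was under 0.005 and its absolute log2 fold change over 0.25. None of the 10 genes was called, against 2.57% of all tested genes (1.78% lower and 0.784% higher in AD1 OE). At an unadjusted p under 0.05 there were 5 of 10, Calb1, Necab1, Ncald and Vsnl1 lower and Caln1 higher, where 18.6% of all tested genes lay (10.3% lower and 8.28% higher). With 0.05 as the limit on the adjusted p and no fold required there were 2, Calb1 and Caln1, against 6.55% of all tested genes. In 4 genes the AD1 OE and Control libraries did not overlap, Calb1, Ncald and Vsnl1 with AD1 OE below and Caln1 with AD1 OE above, against 7.26% of all tested genes that did not overlap with AD1 OE below and 5.69% with AD1 OE above. The median log2 fold change of the 10 genes was -0.017, beside 0.0018 over all tested genes. In whole ganglia, fewer cells of a type and less RNA per cell cannot be told apart.

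**Figure D1:**
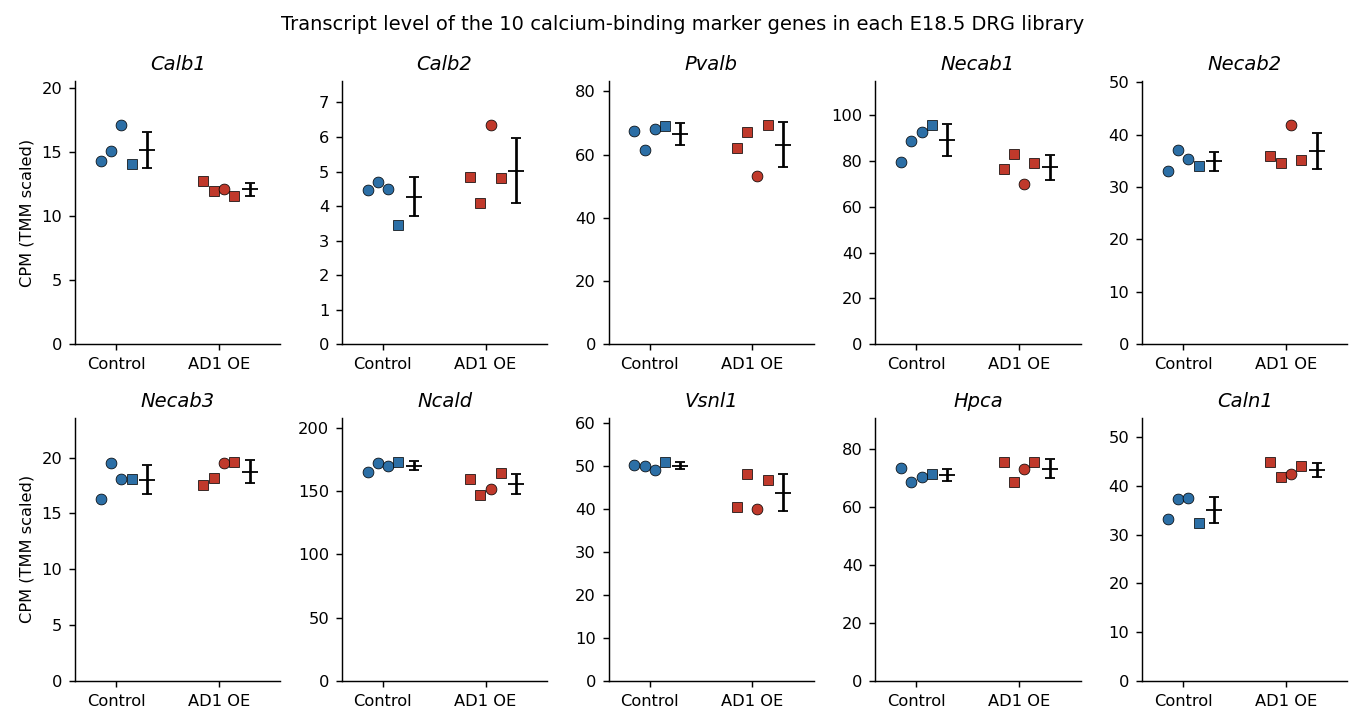
CPM (TMM scaled, linear axes from 0) of each gene in the 4 Control (blue) and 4 AD1 OE (red) libraries, with squares for libraries read as male and circles for those read as female, and the mean ± SD beside each group. Calb1, Ncald and Vsnl1 show all red points below the blue ones and Caln1 all above, and the other 6 genes overlap.

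The buffers differed in how they varied. Calb1 was at 12.73, 11.98, 12.16 and 11.55 CPM in AD1 OE replicates 1 to 4 and at 14.3, 15.1, 17.1 and 14.1 CPM in the Controls. Every AD1 OE library lay below every Control library, and the highest AD1 OE value was below the lowest Control value by less than the range of the Controls. The means were 12.1 ± 0.488 and 15.2 ± 1.39 CPM (SD, n = 4 each), or 79.9% of Control. The log2 fold change was -0.32 ± 0.07 (SE, 95% interval -0.48 to -0.16), with an edgeR adjusted p of 0.0217, so that Calb1 passed the limit on the fold and not that on p.

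Calb2, the least abundant of the 10, was at 4.84, 4.10, 6.35 and 4.82 CPM in AD1 OE and 4.45, 4.70, 4.48 and 3.45 CPM in Control. The groups overlapped, and the highest value was that of AD1 OE replicate 3, the library with the most muscle signal. The means were 5.03 ± 0.947 and 4.27 ± 0.562 CPM, and the log2 fold change was 0.24 ± 0.14 (95% interval -0.07 to 0.56, edgeR adjusted p = 0.416). This was the widest interval of the set. Of the 10 genes, Calb2 also moved most when a sex term was added to the fit. Its log2 fold change was then 0.47 (edgeR adjusted p = 0.0361, not called). Within the libraries read as male, AD1 OE ranged from 4.10 to 4.84 against 3.45 CPM. Within those read as female it was 6.35 against 4.45 to 4.70 CPM. Replicate 3 is the only AD1 OE library read as female, so that sex and this library cannot be told apart within AD1 OE. Without replicate 3 the log2 fold change of Calb2 was 0.12.

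Pvalb was at 62.2, 67.2, 53.4 and 69.4 CPM in AD1 OE and 67.5, 61.6, 68.2 and 69.2 CPM in Control. The groups overlapped, and only AD1 OE replicate 3 lay below the whole Control range. The means were 63.1 ± 7.13 and 66.6 ± 3.43 CPM, with a log2 fold change of -0.08 ± 0.07 (95% interval -0.24 to 0.08, edgeR adjusted p = 0.626). Without AD1 OE replicate 3 the log2 fold change was -5.58e-05. Of the 8 other proprioceptor markers examined, 1 was called (2.57% of all tested genes), the transcription factor Etv1, at 81.7 to 104 CPM in AD1 OE and 163 to 197 CPM in Control (log2 fold change -0.97 ± 0.07, edgeR adjusted p = 6.39e-06). The summed level of the 8 markers was 561 to 675 CPM in AD1 OE and 602 to 673 CPM in Control, and this sum overlapped between groups. Genes of the list moved in opposite directions: 3 of 8 were lower and 3 of 8 higher at an unadjusted p under 0.05 (10.3% and 8.28% of all tested genes), and the AD1 OE libraries lay below all Controls for 3 (7.26%) and above them for 2 (5.69%).

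The NECAB genes are 3 paralogues with a calcium-binding N-terminal part and a domain related to bacterial monooxygenases. Necab1, the most abundant in CPM, was at 76.4, 83.0, 70.1 and 79.0 CPM in AD1 OE and 79.4, 88.6, 92.4 and 95.7 CPM in Control. AD1 OE replicate 2 lay above Control replicate 1, the library with the most spinal cord signal, and the other 3 AD1 OE libraries lay below all Controls. The means were 77.1 ± 5.42 and 89.0 ± 7.03 CPM, and the log2 fold change was -0.21 ± 0.06 (95% interval -0.35 to -0.07, edgeR adjusted p = 0.0786). Without Control replicate 1 it was -0.26 (edgeR adjusted p = 0.0186), not called.

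Necab2, which binds G protein-coupled receptors, was at 35.9, 34.6, 41.8 and 35.1 CPM in AD1 OE and 33.1, 37.1, 35.3 and 33.9 CPM in Control. The groups overlapped, with AD1 OE replicate 3 alone above all Controls, and the log2 fold change was 0.08 ± 0.07 (95% interval -0.07 to 0.22, edgeR adjusted p = 0.583). Necab3 ranged from 17.6 to 19.6 CPM in AD1 OE and from 16.3 to 19.5 CPM in Control, with a log2 fold change of 0.05 ± 0.07 (95% interval -0.09 to 0.20, edgeR adjusted p = 0.741). For both genes the sign turned when AD1 OE replicate 3 and Control replicate 1 were left out together (-0.0063 and -0.0072).

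Among the neuronal calcium sensors, Ncald was the most abundant in CPM, at 159.6, 147, 151 and 165 CPM in AD1 OE and 165, 172, 169.7 and 173 CPM in Control. Every AD1 OE library was below every Control library, by a small margin between AD1 OE replicate 4 (164.6 CPM) and Control replicate 1 (165.0 CPM). The means were 156 ± 7.93 and 169.97 ± 3.66 CPM, and the log2 fold change was -0.13 ± 0.04 (95% interval -0.21 to -0.04, edgeR adjusted p = 0.0866). Vsnl1 was at 40.4, 48.1, 39.9 and 46.7 CPM in AD1 OE and 50.2, 50.02, 49.0 and 51.0 CPM in Control. Its Control libraries lay closer together, relative to their mean, than those of the other 9 genes (50.06 ± 0.810 CPM), while the AD1 OE libraries spread more widely below them (43.8 ± 4.23 CPM), and the log2 fold change was -0.20 ± 0.06 (95% interval -0.33 to -0.06, edgeR adjusted p = 0.100).

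Hpca, named for the hippocampus, was at 75.6, 68.6, 73.1 and 75.3 CPM in AD1 OE and 73.3, 68.6, 70.4 and 71.4 CPM in Control. The groups overlapped and the 95% interval of its log2 fold change, -0.05 to 0.14 around 0.05, covered 0 (edgeR adjusted p = 0.619). In 5 of the 10 genes, Pvalb, Necab2, Necab3, Ncald and Hpca, the whole interval of the main fit lay within the 0.25 limit on either side of 0. That of Ncald did not cover 0. These intervals do not allow for sex. With a sex term the log2 fold change was -0.19 ± 0.07 (SE) for Pvalb, 0.16 ± 0.06 for Necab2 and -0.15 ± 0.05 for Ncald. It was 0.07 ± 0.08 for Necab3 and 0.04 ± 0.05 for Hpca. Each of these 5 values except that of Hpca lay further from 0 than in the main fit. No intervals are given with that term. By these SE, 95% intervals would pass the 0.25 limit for Pvalb and Necab2. For Necab3, Ncald and Hpca this was not examined.

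Caln1 had the smallest p of the 10. It was at 45.0, 41.9, 42.5 and 44.0 CPM in AD1 OE and 33.2, 37.3, 37.5 and 32.5 CPM in Control. All AD1 OE libraries lay above all Control libraries, and the gap between the groups was wider than the range within AD1 OE and narrower than that within Control. The means were 43.3 ± 1.43 and 35.1 ± 2.68 CPM, 123% of Control, with a log2 fold change of 0.30 ± 0.06 (95% interval 0.18 to 0.43, edgeR adjusted p = 0.00746), past the limit on the fold and just short of that on p. DESeq2, the tool of the study, called Caln1 on the same counts (log2 fold change 0.31, DESeq2 adjusted p = 7.27e-05), where it called 3.70% of all tested genes, and so did edgeR with no filter on low counts (0.31, adjusted p = 2.58e-04), where 2.05% were called. In the fits that each left out 1 library, its edgeR adjusted p ranged from 0.00815 to 0.0327 and its log2 fold change from 0.27 to 0.34, and it was called in none of them. Within the libraries read as male, AD1 OE was at 41.9 to 45.0 against 32.5 CPM, and within those read as female at 42.5 against 33.2 to 37.5 CPM.

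**Figure D2:**
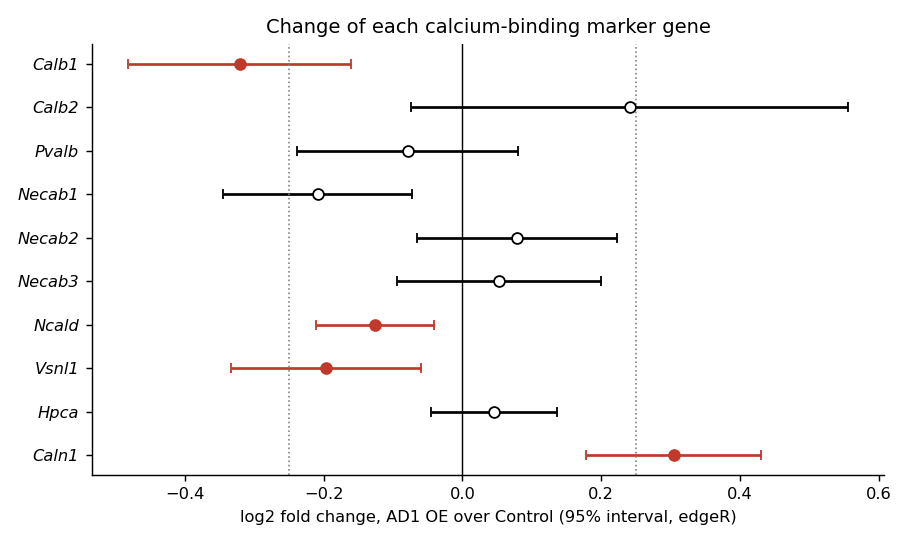
Log2 fold change of each gene in AD1 OE over Control (points, edgeR) with its 95% interval (bars); filled red points mark genes whose libraries do not overlap between groups, open points those that overlap, and dotted lines the limits of 0.25 on either side of 0. Calb1 at -0.32 and Caln1 at 0.30 lie outside the dotted lines, and 5 intervals lie wholly inside them.

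Sex was read from the data and not stated in the labels. The libraries read as male were 3 AD1 OE and 1 Control. Those read as female were 1 AD1 OE, replicate 3, and 3 Control, so no test within a sex has replicates in both groups. Calb1, Necab1, Ncald and Vsnl1 were below Control in both sexes, and Calb2, Necab2 and Caln1 were above Control in both. For Calb1 the log2 ratio of means was -0.22 among males and -0.35 among females, and with a sex term in the fit its edgeR adjusted p was 0.119. Ncald gave -0.14 and -0.16, and Vsnl1 -0.18 and -0.32, in males and females. Necab3 and Pvalb overlapped among males, and Hpca overlapped in both. Among females, AD1 OE replicate 3 was above all Controls for Necab3 (log2 ratio 0.12) and below them for Pvalb (log2 ratio -0.30). The fit with the sex term gave -0.30 for Necab1 (edgeR adjusted p = 0.0122) and -0.19 for Pvalb (edgeR adjusted p = 0.192). With the sex term, 1.95% of all tested genes were called and none of the 10, and limma-voom called 2.58% and none of the 10.

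Control replicate 1, with the most spinal cord and sympathetic signal, was the highest Control library for 1 of the 10 genes, Hpca, and the lowest for 4, the NECAB genes and Ncald. The 3 most abundant spinal cord markers were Slc1a2, at 14.0 to 17.7 CPM in AD1 OE and 11.6 to 29.1 CPM in Control, Gfap, at 2.83 to 4.97 and 2.90 to 8.05 CPM, and Slc6a5, at 0.407 to 1.57 and 0.592 to 5.44 CPM. Of the 12 spinal cord markers, 8 were tested and none called, and Lbx1, Mnx1 and Sox14 were at 0 in at least 1 library. Their part in the values above was not tested beyond leaving those libraries out.

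Compared per length of all exons together, the Control level was highest for Pvalb, at 64.0 ± 3.29 CPM per kb. Vsnl1 (25.6 ± 0.414 CPM per kb) and Hpca (24.3 ± 0.679) followed with Control ranges that overlapped each other, then Ncald (19.8 ± 0.426). Necab1 (17.0 ± 1.34 CPM per kb) and Necab2 (16.6 ± 0.844) overlapped, Necab3 stood at 7.07 ± 0.513, Caln1 (3.35 ± 0.256) and Calb1 (3.13 ± 0.286) overlapped, and Calb2 was lowest at 2.45 ± 0.322 CPM per kb. So the proprioceptor buffer was the most abundant of the set per length and the other 2 buffers the least. In AD1 OE, Hpca stood before Vsnl1, Necab2 before Necab1 and Calb2 before Calb1 by their means, and the other 4 genes kept their places. The AD1 OE ranges overlapped for Hpca (23.5 to 25.9 CPM per kb) and Vsnl1 (20.4 to 24.6). They also overlapped for Calb2 (2.35 to 3.64) and Calb1 (2.38 to 2.63). Those of Necab2 (16.5 to 20.0) and Necab1 (13.4 to 15.8) did not. With the length of the longest transcript instead, Ncald (45.5 CPM per kb) and Hpca (38.4) stood above Vsnl1 (26.3) in Control, and the other 7 genes kept their places.

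**Figure D3:**
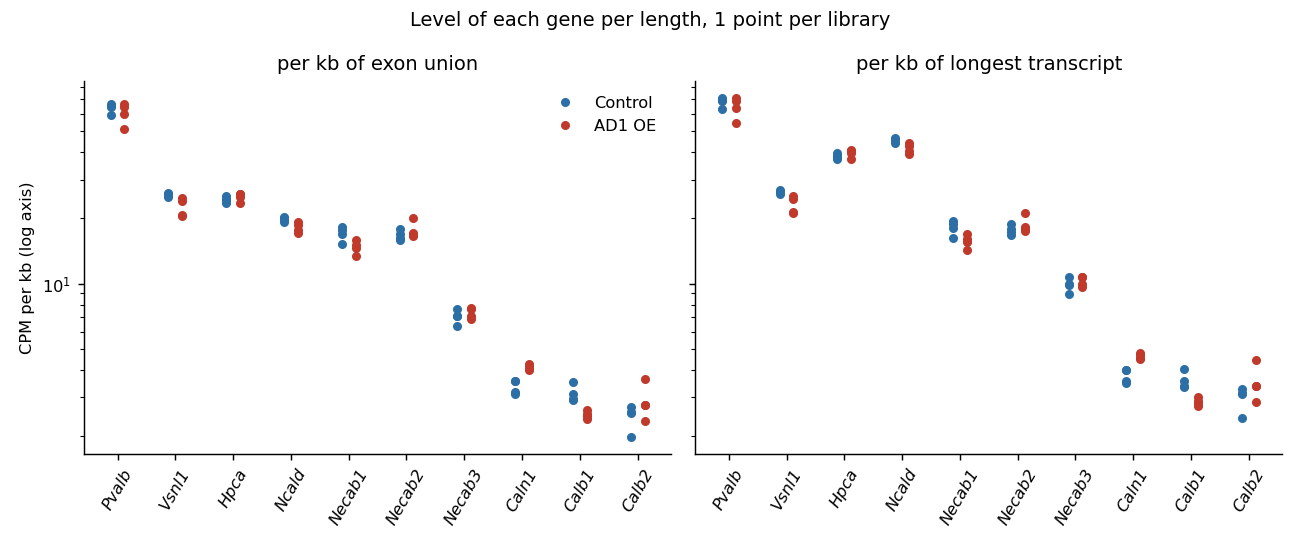
CPM per kb on a log axis for each gene, 1 point per library, Control in blue and AD1 OE in red, with length taken as all exons together (left) or the longest transcript (right). Pvalb is highest on both scales, and Ncald and Hpca move above Vsnl1 on the right.

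The rest of the EF-hand and calcium clearance machinery was read from lists of 66 genes, of which 55 were tested. Here 6 genes were called lower in AD1 OE and 0 higher, against 1.78% and 0.784% of all tested genes. An unadjusted p under 0.05 was found for 23 (19 lower and 4 higher), against 18.6% of all tested genes (10.3% lower and 8.28% higher), and the median log2 fold change was -0.087 beside 0.0018 over all tested genes. The called genes lay mainly in the list of the other neuronal calcium sensors and Kv channel-interacting proteins, relatives of Ncald, Vsnl1 and Hpca, in which 4 of 8 tested genes were called lower and none higher, against 1.78% and 0.784% of all tested genes. All 8 had negative log2 fold changes, their median was -0.54, and in 7 of 8 the AD1 OE libraries lay below all Controls, as they did in 7.26% of all tested genes. The signs held with each of the other scalings and with every library left out in turn.

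Kcnip1, Kcnip2 and Kcnip4 encode Kv channel-interacting proteins, auxiliary subunits of A-type potassium channels. Kcnip1 was at 10.96, 10.1, 10.4 and 9.89 CPM in AD1 OE and 16.8, 15.5, 17.5 and 17.0 CPM in Control, and fell with a log2 fold change of -0.69 ± 0.06 (edgeR adjusted p = 4.16e-05). Kcnip2 was at 20.5, 21.03, 17.4 and 19.7 against 27.9, 30.6, 30.1 and 31.9 CPM, with a log2 fold change of -0.62 ± 0.07 (edgeR adjusted p = 1.56e-04). Kcnip4 was at 11.6, 15.4, 14.2 and 14.2 against 21.7, 24.2, 20.4 and 24.5 CPM, with a log2 fold change of -0.73 ± 0.09 (edgeR adjusted p = 4.33e-04). No AD1 OE library of these 3 genes reached the lowest Control library. Kcnip4 shares exon bases with genes on the opposite strand, and whether the counting used strand is not stated.

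Hpcal1, the closest relative of hippocalcin in the list, was at 174, 171, 183 and 183 CPM in AD1 OE and 206, 216, 218 and 216 CPM in Control. It fell by 0.27 on the log2 scale (SE 0.04, edgeR adjusted p = 7.2e-04) and missed the call in 4 of 17 other fits, including that with the sex term (edgeR adjusted p = 0.00679). Ncs1, the neuronal calcium sensor that gives the family its name and a gene picked after its values were seen, was at 158 to 174 against 184 to 189.6 CPM (log2 fold change -0.18 ± 0.03, edgeR adjusted p = 0.00867, not called). Kcnip3, also picked after its values were seen, was at 28.5 to 31.7 against 33.3 to 37.8 CPM. Its log2 fold change was -0.26 ± 0.06 (edgeR adjusted p = 0.0178, not called), and 1 of 17 other fits, DESeq2, called it. Thus Hpcal1, Kcnip1, Kcnip2 and Kcnip4 passed the test, while Kcnip3, Ncald at -0.13, Vsnl1 at -0.20 and Hpca at 0.05 did not. Whether their log2 fold changes differ from each other was not tested.

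**Figure D4:**
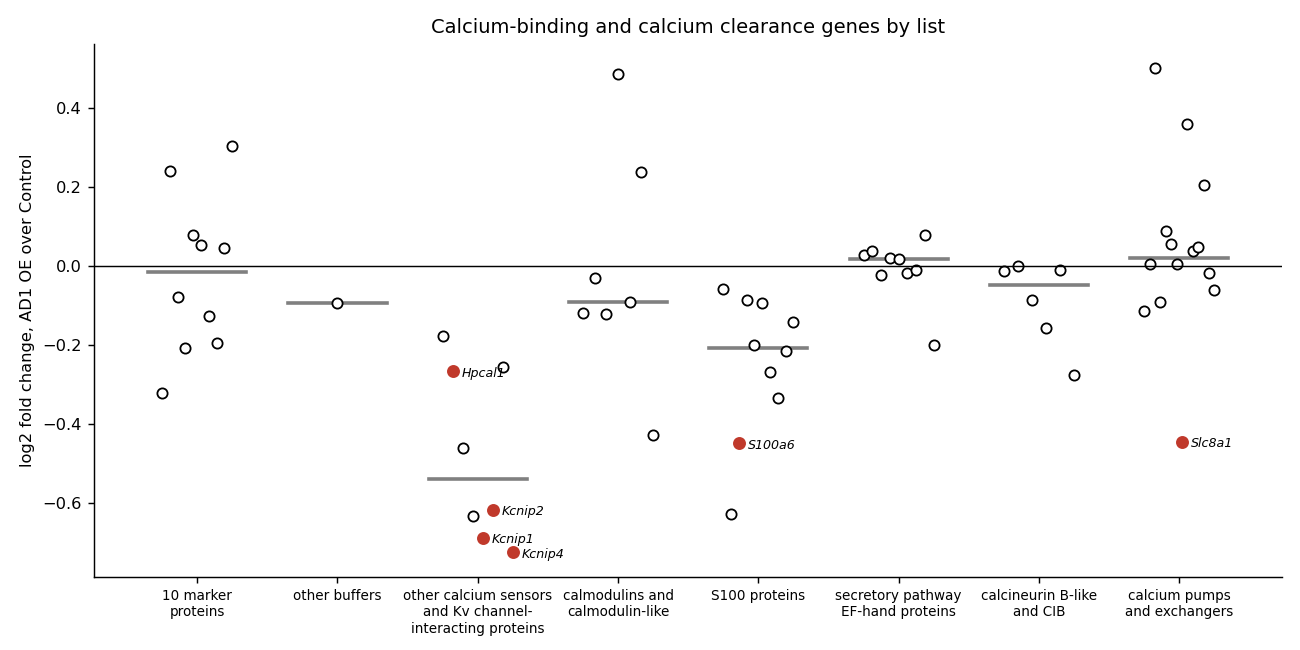
Log2 fold change in AD1 OE over Control for the 10 marker proteins and for the tested genes of 7 other calcium lists, with called genes in red and named, other genes open, and the median of each list as a grey bar. The medians are -0.017 for the 10 genes and -0.54 for the other calcium sensors, and all 6 called genes lie below 0.

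In the S100 list, 1 of 10 tested genes was called, where 1.78% of all tested genes were called lower. It was S100a6, calcyclin, at 153 to 189 CPM in AD1 OE and 212 to 242 CPM in Control (log2 fold change -0.45 ± 0.06, edgeR adjusted p = 9.96e-04), and the call was lost without AD1 OE replicate 1 (edgeR adjusted p = 0.00586). All 10 log2 fold changes were negative with a median of -0.21, and 1 to 3 of them turned sign in 4 of the 8 fits that left out a single library. Among 14 calcium pumps and exchangers, 1 was called lower, against the same 1.78%, Slc8a1, a plasma membrane sodium-calcium exchanger, at 40.4, 38.4, 37.8 and 39.8 CPM in AD1 OE and 55.1, 53.6, 51.8 and 52.5 CPM in Control (log2 fold change -0.45 ± 0.04, edgeR adjusted p = 5.29e-05). The median of that list was 0.021, with 9 of 14 values above 0. Slc8a1 shares exon bases with genes on the opposite strand.

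No gene was called by the main edgeR test in the other 4 lists. The 7 tested calmodulins and calmodulin-like genes had a median of -0.092, and the smallest p belonged to Calml4 (log2 fold change 0.49 ± 0.09, edgeR adjusted p = 0.00619) and then Calm3 (-0.12 ± 0.05, adjusted p = 0.176). Calml4 was called in 6 of 17 other fits, including DESeq2 (DESeq2 adjusted p = 1.29e-04). The 9 EF-hand proteins of the secretory pathway had a median of 0.016, and their smallest p belonged to Efhd2 (-0.20 ± 0.07, edgeR adjusted p = 0.117), Rcn1 (0.04 ± 0.04, adjusted p = 0.697) and Efhd1 (0.08 ± 0.13, adjusted p = 0.814). The 6 tested calcineurin B-like and CIB genes had a median of -0.05, led by Cib2 (-0.28 ± 0.07, edgeR adjusted p = 0.0461), Tesc (-0.16 ± 0.12, adjusted p = 0.524) and Chp2 (-0.09 ± 0.11, adjusted p = 0.750). Of 3 other buffers, secretagogin (Scgn) alone was tested, at 0.971 to 1.43 CPM in AD1 OE and 1.09 to 1.53 CPM in Control (-0.09 ± 0.18, edgeR adjusted p = 0.857), and S100g and Ocm had at most 13 and 3 counts in any library. Cib2 and Efhd1, like Avil, Shox2 and Slc1a2 among the other genes named, share exon bases with genes on the opposite strand.

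For the sensory classes in which these proteins serve as markers, the A-LTMR (low-threshold mechanoreceptor) list had 4 called genes of 8, 3 lower and 1 higher, where 1.78% and 0.784% of all tested genes were called. Mafa (log2 fold change -1.61 ± 0.17), Shox2 (-0.86 ± 0.09) and Gfra2 (-0.58 ± 0.07) were lower, and Mef2c (0.38 ± 0.05) higher, with edgeR adjusted p of 1.25e-04, 8.16e-05, 2.3e-04 and 9.99e-04. The call of Mef2c was lost with the sex term (edgeR adjusted p = 0.00705). Over the whole A-LTMR list, 4 of 8 genes were lower and 3 of 8 higher at an unadjusted p under 0.05 (10.3% and 8.28% of all tested genes). The AD1 OE libraries lay below all Controls for 4 (7.26%) and above them for 2 (5.69%). The summed level of the A-LTMR list was 1125 to 1147 CPM in AD1 OE and 1149 to 1281 CPM in Control. These sums did not overlap, by a small margin. Of 9 nociceptor markers, 5 were called lower and none higher, against 1.78% and 0.784% of all tested genes, and 3 of 9 had a log2 fold change above 0, 1 of them with an unadjusted p under 0.05 and all AD1 OE libraries above Control. Their summed level was 2362 to 2526 CPM in AD1 OE and 3149 to 3443 CPM in Control. This sum was lower in every AD1 OE library than in any Control library. The part of a shift in neuron classes in the values of the 10 genes was not tested.

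Profiles over the 8 libraries were compared among the 15518 genes that averaged 1 CPM or more, as the root mean square difference of log2 CPM centred on each gene's mean. The genes most like Caln1 were Minar1 (0.0517), Bmper (0.0535) and D130009I18Rik (0.0563), beside a root mean square of 0.169 for Caln1 itself. For Calb1 they were Dcaf12l1 (0.0494), Alg9 (0.0587) and Nwd2 (0.0668). Calb2 had Vstm2l (0.0916), Igsf21 (0.093) and Gm9958 (0.0969), and Pvalb had Ramac (0.0369), Abhd6 (0.0376) and Ube2w (0.0433). The 8 libraries share the contrast of genotype and that of sex, and these values are a description.

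Some of the 10 genes share exon bases with neighbours. Necab1 shares 410 bases with Gm11837, Necab3 71 with 1700003F12Rik, Ncald 347 with Gm28221 and Hpca 57 with Tmem54, all on the opposite strand, and Ncald shares 286 with Gm49397 on its own strand. Counts of these genes are uncertain to that extent. Calb1, Calb2, Pvalb, Necab2, Vsnl1 and Caln1 had no such neighbour in GENCODE M21.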

How the data were processed

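Per the labels and the study's methods, total RNA of E18.5 DRG (neurons and glia) was made into stranded mRNA libraries and sequenced on a NovaSeq instrument. According to the submitters' processing notes, bcl2fastq 2.20.0.422, STAR 2.7.8a and featureCounts 2.0.1 were used with GRCm39. The authors deposited raw counts per Ensembl gene, 1 table per library, neither normalized nor pooled. Whether counting used strand is not given in the sources used here.

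Counts of 8 libraries (22339059 to 44025625) were fitted in R 4.3.3 with edgeR 4.0.16 (filterByExpr, TMM, quasi-likelihood test on genotype, Benjamini-Hochberg adjustment). Genes were called at the thresholds of the study, 0.005 for the adjusted p and 0.25 for the size of the log2 fold change. CPM are counts per library size after TMM scaling. Standard errors and 95% intervals came from the same fit. DESeq2 1.42.0, limma-voom (limma 3.58.1), other scalings, filters and thresholds, a replicate block, a sex term and leaving out libraries were alternatives.

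Names, lengths, shared exons and coding sequences came from GENCODE M21 (GRCm38), and 52081 of 55414 IDs had a symbol. No protein sequences were used here, so EF-hand loops were located through the translated coding sequence.

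All 10 genes were described. In each calcium list the called genes, or else the 3 with the smallest p, were named (1 of these is not reported here), and among markers the called proprioceptor and A-LTMR genes and the 3 most abundant spinal cord genes. Other genes were picked after their values were seen. The 10 genes and all lists were chosen with earlier results of these data known.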

Additional observations from a re-analysis of the deposited data

How the results depend on the processing

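Of the 10 genes, 7 kept the direction of their log2 fold change under all 17 other fits. Pvalb, Necab2 and Necab3 turned to 0.00094, -0.0063 and -0.0072 when AD1 OE replicate 3 and Control replicate 1 were left out together, a choice made after seeing the data. Caln1 passed the test under DESeq2 (0.31, DESeq2 adjusted p = 7.27e-05), without a filter on low counts (0.31) and with 0.05 as the adjusted p limit and no fold required (0.30), and Calb1 passed at that last threshold only (-0.32). The number of the 10 genes called higher was therefore 1 in these 3 settings and 0 otherwise, and the number called lower was 1 at the adjusted p under 0.05 and 0 otherwise. Avil (-0.94) missed the call where an absolute log2 fold change over 1 was required.

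Of the 55 other tested calcium genes, 6 were called lower, and the number was 10 with the 0.05 limit and no fold required, 0 where a log2 change over 1 was required, and 4 to 6 with single libraries left out. The number called higher, 0 in the main test, was 2 under DESeq2, with no filter and at an adjusted p under 0.05, and 1 under limma-voom, with no composition scaling, with both named libraries left out and without Control replicate 1 (0 to 1 with single libraries left out). Over all genes, 455 were called, 655 under DESeq2, 747 of 36426 tested with no filter, and 289 to 420 with single libraries left out, the lowest without AD1 OE replicate 1.

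The labels do not say whether the replicate numbers 1 to 4 pair the libraries. Between libraries of the same number, the correlation of deviations from the group means was -0.0099, -0.054, -0.035 and 0.31. These values cannot settle whether any were paired. With a replicate block, 348 genes were called, 0 of the 10 and 6 of the other calcium genes lower, and Caln1 was at 0.31. One AD1 OE library of 4 correlated best with its own number.

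At 92 to 214 counts per library, Calb2 had the widest interval of the 10 genes, and a log2 difference of up to 0.56 lay within it. Leaving out single libraries lowers the number of residual samples as well.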
